A study of Mus musculus with 4 samples.

Results

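The regions described here were 2180 peaks of RNA immunoprecipitation sequencing (RIP-seq), all called in mouse livers given an adeno-associated virus (AAV) carrying NAT10, and all in genes that held no peak in the livers given the control virus carrying GFP. They were chosen by gene name: a peak of the AAV-NAT10 list was taken where its gene name did not occur anywhere in the AAV-GFP list. The members were 5.25% of the 41511 AAV-NAT10 peaks, and both lists together held 75479 peaks. They lay in 1427 of the 8508 genes with an AAV-NAT10 peak, or 16.8%. Since the rule itself is a comparison of both lists, these shares describe the choice and are not results about it, and shares of member genes in any group below are descriptions to be read beside the 16.8%. All libraries came from livers of male C57BL/6 mice, and the groups differ by the virus, AAV-GFP or AAV-NAT10. For each virus 1 immunoprecipitated (IP) library and 1 input library are listed, 4 libraries in all. No group was repeated, so no difference between the viruses has a replicate check and no test was made. Age, viral dose, time after injection and the number of animals behind a library are not given in the labels, nor are the promoter of the vector and the cells it reached. The protocol text also names db/db and lean mice as the source of the RNA, which the sample titles do not. It describes an antibody to a protein, or IgG, whereas the library type names ac4C, so the labels do not settle what the antibody bound. A gene is called bound below where it holds a listed peak, whatever the antibody bound.

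NAT10 is the enzyme that places an acetyl group on cytidine in RNA and so makes N4-acetylcytidine (ac4C). It is best known for acetylating ribosomal RNA and transfer RNA, and it has also been described to acetylate messenger RNA, where ac4C has been linked to RNA stability and translation. In ribosomal RNA the acetylated base lies in a CCG context, and runs of CNN triplets (a cytidine followed by any pair of bases) have been reported for acetylated messenger RNA. The liver makes, stores and exports lipid and glucose, and fatty liver disease arises where triglyceride builds up in hepatocytes.

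The first transcribed bases of member genes are shown first, because they are the only bases under member peaks that could be read here, from the RefSeq promoter table (GRCm38.p6). The 8 sequences of highest peak fold are shown, with that of the lipid sensor Nr1h3 added because its gene belongs to the lipid synthesis list. They run 5′ to 3′ on the transcribed strand, and capitals mark the CNN repeat, taken here as CNN written 3 times and closed by a C, wherever it lies whole within the 30 bases. Only 2 of the 9 windows, those of Echdc2 and Traf4, hold it there.
Pfkfb3 (chr2:11502061-11502090, minus strand): gccgcgctaccggtcagatcttaaaaggcc
Cebpb (chr2:167688915-167688944, plus strand): gcccgttgccaggcgccgccttataaacct
Echdc2 (chr4:108165437-108165466, plus strand): cttggcgaggCCTCGCCCGCCCCggaacta
Syvn1 (chr19:6046576-6046605, plus strand): tgcgttggggggaggtaacctgggaagacc
Ddx17 (chr15:79546712-79546741, minus strand): gaaccctacgccggttgcgcacattgcctt
Hhex (chr19:37434841-37434870, plus strand): agctctctgcgaggggctgcggagcggcca
Traf4 (chr11:78165521-78165550, minus strand): ggccgccagtCGGCGCCGCCCGCAGCcggg
Aars (chr8:111033842-111033871, plus strand): cgggtcacttttcatcagagcgctctgatt
Nr1h3 (chr2:91195006-91195035, minus strand): agggtgaggagaggaaggagagagatggaa
The member peaks over these starts had fold enrichments of 15.1 for Pfkfb3, 13.4 for Cebpb, 11.8 for Echdc2, 9.96 for Syvn1, 9.22 for Ddx17, 9.06 for Hhex, 8.89 for Traf4, 8.77 for Aars and 7.86 for Nr1h3. The fold enrichment is a linear ratio over background given for each peak by the authors' peak caller. Neither of the windows with the highest folds, Pfkfb3 and Cebpb, holds the motif in its first 30 bases, and Cebpb holds it at 2 positions when the first 50 bases are read.

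Over all member peaks that cover the first 50 bases of a RefSeq transcript start, 125 windows in 123 genes, the CNN repeat occurred on the transcribed strand in 33, or 26.4% (exact 95% interval 18.9 to 35.0, for counting error only). Among the 1063 windows under the other AAV-NAT10 peaks the share was 29.7% (27.0 to 32.6), and among all 32851 promoter entries it was 22.1%. The opposite strand, searched the same way, held the motif in 39.2% of the member windows, 46.1% of the other bound windows and 29.99% of all entries. The letters CCG were present in 63.2%, 65.6% and 42.4% of these windows, in the same order. The CNN repeat can overlap CCG. The median GC content of the first 50 bases was 62% under the member peaks, 66% under the other AAV-NAT10 peaks and 56% over all entries. The intervals of the motif shares of member and other bound windows overlap, and both bound sets had a higher GC content than all entries. For the CNN repeat on the transcribed strand the member interval also holds the 22.1% of all entries. The interval of the other bound windows lies above that share. These matches describe letters and do not locate a modified base.

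The member peaks were of low fold and low score. Their fold enrichment ranged from 2.32 to 47.1 with a median of 4.56 and quartiles of 3.83 and 5.58, whereas the 39331 AAV-NAT10 peaks in genes that also had a control peak had a median of 6.67 and an upper quartile of 9.05. A fold of at least 10 was reached by 37 member peaks, 1.70% (1.20 to 2.33), and by 18.8% of the other peaks. The score, which is a multiple of minus log10 of the authors' p-value and is held near 3100 at its ceiling, had a median of 121 in the members and 328 in the others. Of the members, 892 or 40.9% scored under 100, against 15.9% of the other peaks, and 36 or 1.65% (1.16 to 2.28) were at the ceiling, against 7.26%. When the whole list was divided by score into 5 classes of like size, members made up 12.1% of the lowest class, then 6.89%, 3.90%, 2.13% and, in the highest class, 1.25%. Low-scored peaks therefore hold a large part of the members. With only AAV-NAT10 peaks scored at least 100, the members were 961 of 7768 genes, 12.4%, and with as many top-scored AAV-NAT10 peaks as the AAV-GFP list holds they were 945 of 7726 genes, 12.2%.

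**Figure D1:**
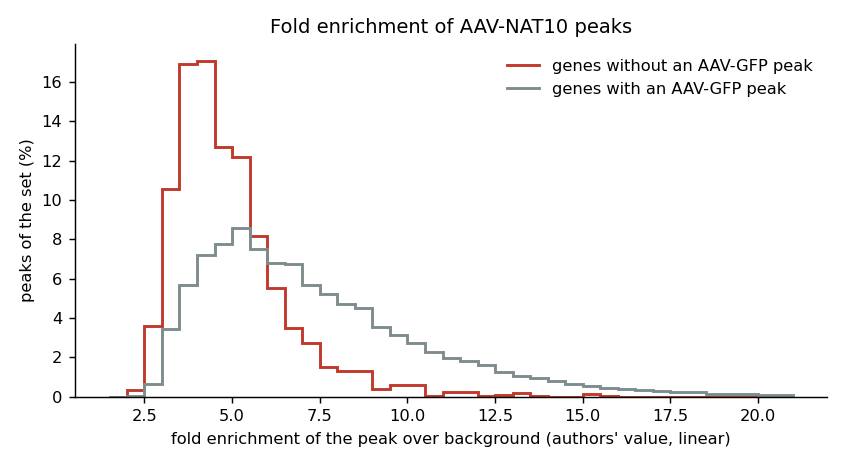
Distribution of fold enrichment, in percent of each set's peaks, for AAV-NAT10 peaks in genes without a control peak (red, 2180 peaks) and with one (grey, 39331 peaks), on a linear axis that stops short of the highest folds. The red curve rises and falls at lower folds than the grey one, whose median is 6.67.

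Member peaks were also longer pieces than the other peaks. Their median length was 378.5 bases (quartiles 164 and 852), and that of the other AAV-NAT10 peaks was 176 bases (123 and 455.5). Pieces of at least 1000 bases made up 19.5% of the members and 14.6% of the others, and pieces under 100 bases made up 7.29% and 13.7%. Together the members covered 1.35 Mb, 5.90% of the covered length of the AAV-NAT10 list. Borders often coincided between the viruses, with 25001 pairs of identical peaks, so a fold or score can belong to a wider enriched stretch than the piece listed.

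Most member genes held a single listed peak. Since a listed piece can belong to a wider enriched stretch, peaks per gene need not count separate places. A single peak was held by 967 of the 1427 member genes, 67.8% (65.3 to 70.2), against 22.7% of the 7081 genes with a peak in both lists. Only 35 member genes, 2.45%, held 5 or more peaks, against 39.6% of the shared genes. The share of members among all bound genes fell with the number of AAV-NAT10 peaks per gene. It was 37.5% (35.7 to 39.4) of the 2577 genes with 1 peak, 20.5% of those with 2, 7.15% of those with 3 to 4 and 2.01% of those with 5 to 9. Of the 1198 genes with 10 or more peaks, 2 were members, 0.167%.

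**Figure D2:**
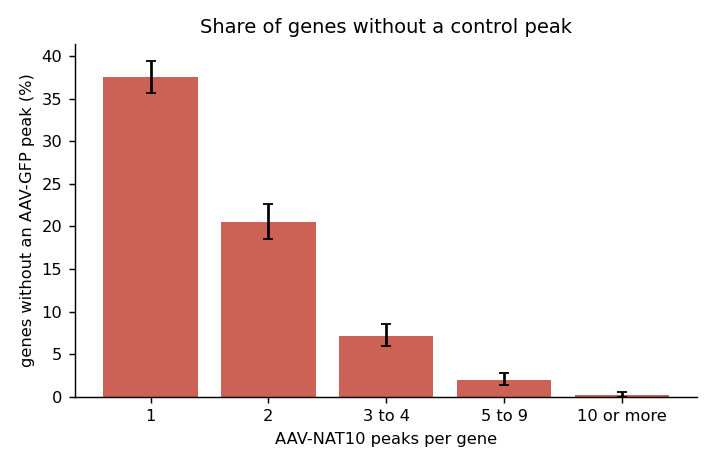
Share of genes with an AAV-NAT10 peak that had no AAV-GFP peak, in percent, by the number of AAV-NAT10 peaks per gene, with bars for the share and lines for exact 95% intervals of counting error. The share falls from 37.5% at 1 peak to 0.167% at 10 or more.

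The member genes were shorter than the shared genes. Their median genomic length in RefSeq was 16696.5 bases (1318 genes with a length) and that of the shared genes was 31933 bases (6691 genes). In 4 classes of gene length, from short to long, members were 27.9%, 19.0%, 10.3% and 8.59% of the bound genes. Protein-coding genes were 89.6% of the members and 93.7% of the shared genes, and pseudogenes were 1.82% and 0.438%. Names of predicted or uncharacterised genes (Gm, Rik or LOC) were 7.29% of the members and 3.64% of the shared genes. Chromosome X held 2.11% of member peaks and 2.20% of the others, which is close to equal.

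Where within the gene a member lay could be read for 1631 of the 2180 peaks, by their RefSeq gene and its strand. Of these, 384 or 23.5% (21.5 to 25.7) reached the 3′ end of the gene within 50 bases, 112 or 6.87% (5.69 to 8.20) reached the 5′ end, and 70.1% reached neither. Among the other AAV-NAT10 peaks 10.7% reached the 3′ end and 2.50% the 5′ end. Set side by side in genes with like numbers of peaks, the order at the 3′ end was reversed in genes with up to 4 peaks and was kept in genes with 5 or more. In genes with 1 peak, 35.4% of the member peaks (31.8 to 39.1, 242 of 684) and 49.7% of the other peaks (46.8 to 52.6, 572 of 1151) reached the 3′ end. In genes with 2 to 4 peaks the shares were 16.6% and 21.1%, and in genes with 5 or more they were 9% (5.42 to 13.9) and 6.23% (5.92 to 6.55). At the 5′ end of single-peak genes the shares were 8.77% and 6.08%, with overlapping intervals (6.76 to 11.1 and 4.77 to 7.62).

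**Figure D3:**
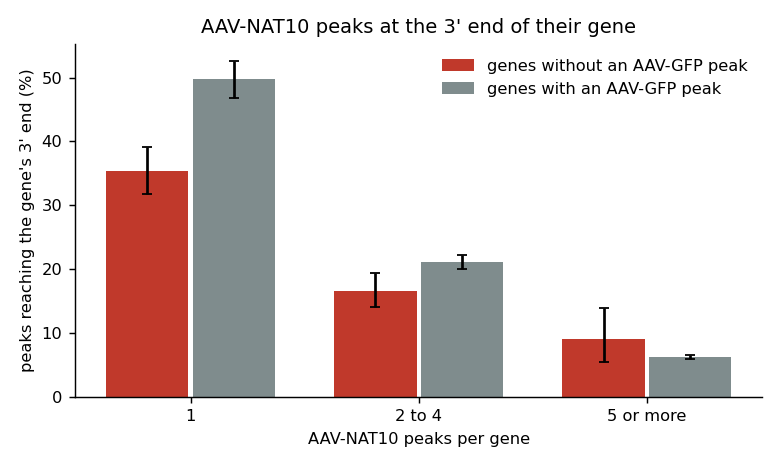
Share of AAV-NAT10 peaks that reach the 3′ end of their gene, in percent, for genes without a control peak (red) and with one (grey), by AAV-NAT10 peaks per gene, with exact 95% intervals of counting error. In genes with 1 peak the red bar stands at 35.4% and the grey bar at 49.7%.

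The strongest members included well-known regulators of liver metabolism and transcription. The highest fold of any member, 47.1, belonged to a piece of 274 bases in Serpina3i, a serine protease inhibitor gene of a cluster of close copies, so that its reads may be shared with its neighbours. The next were Plcxd2 (a phospholipase C domain protein) at 15.7, Ppp1r16a (a regulatory subunit of protein phosphatase 1) at 15.2, and Pfkfb3 (the kinase that makes fructose 2,6-bisphosphate, an activator of glycolysis) at 15.1. Bbc3, which encodes the pro-apoptotic protein PUMA, reached 14.0 over 1128 bases with a score of 1869. The transcription factor gene Cebpb reached 13.4 with a peak of 1518 bases that spans the whole RefSeq gene, which has no intron, on chromosome 2 from 167688915 to 167690432 (mm10). The pseudogene Adh6-ps1 (13.4), the phosphatidate phosphatase gene Lpin2 (13.2), the zinc importer gene Slc39a14 (12.8) and the centromere protein gene Cenpb (11.9) closed the highest 10. Genes with Gm, Rik or LOC names were passed over in this ranking, and in those by number of peaks and by ceiling length.

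In the rankings so made, Pfkfb3 was the only member gene among the highest 10 by fold and also among the 10 with the most peaks. From its 3′ side to its 5′ side on chromosome 2, between 11471488 and 11502101 (minus strand), its 7 peaks had folds of 13.0, 12.0, 7, 9.75, 5.18, 7.07 and 15.1. The first of these was 3056 bases long and at the score ceiling, the next was 472 bases long, the 4 that followed were 57 to 208 bases long and the last was 477 bases long. The folds were thus highest in the outer pieces at both ends of the gene.

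A peak at the score ceiling was held by 33 member genes, 2.31%, against 30.4% of the shared genes. Several of the longest are regulators or transporters of the hepatocyte. Igf1, the growth factor that the liver secretes under growth hormone, held a single piece of 6373 bases with a fold of 10.1 at the 3′ end of the gene (chromosome 10, 87930675 to 87937047, plus strand). Slc7a2, a transporter of cationic amino acids, held a single piece of 5971 bases with a fold of 7.91. Plcxd2 held pieces of 5914 and 461 bases with folds of 15.4 and 15.7. Onecut1, a hepatocyte transcription factor, held a piece of 1481 bases at its 5′ end with a fold of 7.83 and a ceiling piece of 2479 bases at its 3′ end with a fold of 4.68. In Onecut1 the ceiling score and the higher fold were therefore in different pieces. Arf6, a small GTPase of membrane traffic, held 3657 bases at 7.59, and Alad, an enzyme of heme synthesis, held 3327 bases at 5.98. Hhex, a homeobox factor of liver development, was not at the ceiling but held 3 peaks with folds of 7.58, 9.06 and 10.97.

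**Figure D4:**
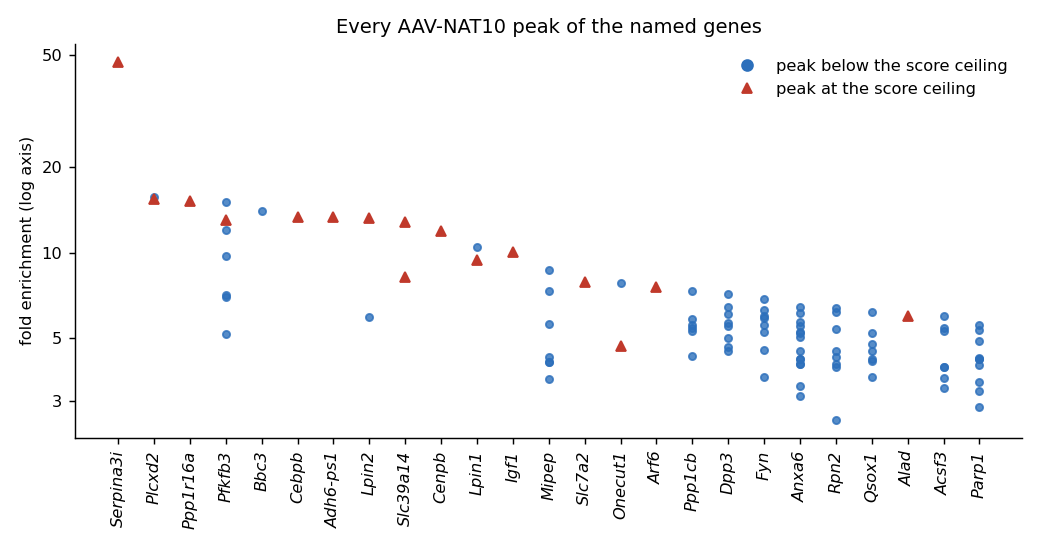
Fold enrichment of each member peak, as the authors' linear ratio, for the member genes named by fold, number of peaks and ceiling length. Points are single peaks of 1 IP library over 1 input, and Pfkfb3 shows its highest points at the outer pieces, 13.0 and 15.1.

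The 10 member genes with the most peaks, Gm, Rik and LOC names passed over and ties ordered by covered length, held 6 to 14 peaks each. Apart from Pfkfb3 none of them reached a fold of 10. Anxa6, a calcium-dependent membrane-binding protein, held 14 peaks covering 1265 bases with folds of 3.12 to 6.42. Parp1, the poly(ADP-ribose) polymerase of DNA repair, held 10 peaks covering 2163 bases with folds of 2.85 to 5.55. Dpp3 (a peptidase), Fyn (a tyrosine kinase) and Rpn2 (a subunit of the oligosaccharyltransferase) held 8 peaks each. Qsox1, Acsf3 and Mipep each held 7, as Pfkfb3 did, and Ppp1cb held 6. Mipep had the highest fold of these genes apart from Pfkfb3, 8.66.

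Among 27 genes of fatty acid and triglyceride synthesis, 23 had an AAV-NAT10 peak and 8 of these, 34.8% (16.4 to 57.3), were members. This interval holds the 16.8% of all bound genes. The members were Lpin1, Lpin2, Lpin3, Fasn, Dgat2, Fads1, Thrsp and Nr1h3. All 3 lipins, which make diacylglycerol from phosphatidate, were among them, and 7 of the 8 genes had a peak scored at least 100. Lpin1 held a ceiling piece of 2904 bases at its 3′ end with a fold of 9.45 and a piece of 153 bases with a fold of 10.5. Lpin2 held a piece of 189 bases at its 5′ end with a fold of 5.92 and a ceiling piece of 2992 bases at its 3′ end with a fold of 13.2 (chromosome 17, 71246827 to 71249818, plus strand). Both strong lipins thus carried a long ceiling piece at the 3′ end. Lpin3 stood apart with 1 piece at a fold of 3.41 and score of 55.3, close to the lowest listed.

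Fasn, the fatty acid synthase gene, held 2052 bases at its 3′ end with a fold of 5.37 and a ceiling piece of 201 bases with a fold of 5.84. Dgat2, which adds the last acyl chain of triglyceride, held a ceiling piece of 1038 bases with a fold of 4.08 and a piece of 322 bases with a fold of 10.3 but a score of 202. Nr1h3, which encodes the oxysterol receptor LXR alpha, held 1 piece of 305 bases at a fold of 7.86 and score of 1786. In Dgat2 as in Onecut1, the piece with the higher score had the lower fold. Fads1, a fatty acid desaturase gene, had a fold of 6.64, and Thrsp, a regulator of lipogenesis, had 5.69.

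Genes for taking up, storing and burning fat also had members, in shares whose intervals hold the 16.8% of all bound genes. The shares were 20% (4.33 to 48.1) for uptake and lipid droplets and 38.5% (13.9 to 68.4) for oxidation. Of 15 bound genes for fatty acid uptake and lipid droplets, 3 were members: Cd36 (a fatty acid translocase) with 3 pieces at folds of 2.73 to 3.64, Pnpla2 (the triglyceride lipase ATGL) with 1 at 3.95, and G0s2 (an inhibitor of that lipase) with 1 at 3.93. Of these only G0s2, with a score of 528, scored at least 100. Of 13 bound genes of fatty acid oxidation, 5 were members, among them Acot1, Cyp4a10, Cyp4a14 and Etfdh. Acot1, an acyl-CoA thioesterase, held a piece with a fold of 9.75, while the pieces of Cyp4a10 and Cyp4a14, fatty acid hydroxylases that are close copies of each other, ranged from 2.32 to 5.08. Acot1, Cyp4a10 and Cyp4a14 all have near-identical relatives, so the placement of their reads is uncertain.

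In cholesterol synthesis and uptake 4 of 14 bound genes were members: Dhcr7, Pmvk, Mvd and Fdft1, all enzymes of the synthesis route. Dhcr7, which makes the last step to cholesterol, held 4 pieces with folds of 3.89, 7, 5.11 and 3.53, and Fdft1, squalene synthase, held 4 pieces with folds of 4.11 to 6.45. All 4 genes had a peak scored at least 100, and none reached the ceiling. For bile acids and sterol export, 3 of 11 bound genes were members: Abcg8 (a subunit of the canalicular sterol exporter), Slco1a1 (an organic anion importer) and Baat (the enzyme that conjugates bile acids). Abcg8 held 4 pieces with folds of 4.44, 5.79, 6.53 and 5.91, the last of them 1672 bases long at the 3′ end of the gene with a score of 2015. Slco1a1 held pieces with folds of 8.35 and 5.20, and Baat held 1 at 6.83. Of 8 bound lipoprotein genes 3 were members, namely Pltp (phospholipid transfer protein, 4 pieces at 4.92 to 7.54), Apob (2 pieces at 5.65 and 3.17) and Lipc (hepatic lipase, 1 piece at 4.01 with a score of 64.4). The shares were 28.6% (8.39 to 58.1) for cholesterol, 27.3% (6.02 to 61.0) for bile acids and 37.5% (8.52 to 75.5) for lipoproteins. Each of these intervals holds the 16.8% of all bound genes.

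In glucose handling and the growth hormone axis every member had a peak scored at least 100. Of 18 bound genes of glucose metabolism and insulin signalling, 5 were members: Pfkfb3, Pfkl, Gcgr, Pklr and Slc2a2. Gcgr, the glucagon receptor gene, held 1 piece of 1072 bases at its 3′ end at a fold of 11.6 and score of 1494. Slc2a2, the main glucose transporter gene of hepatocytes, held 1 piece with a fold of 7.40, Pfkl (liver phosphofructokinase) held 4 with folds of 3.10 to 6.59, and Pklr (liver pyruvate kinase) held 1 with a fold of 2.51. The folds of these genes thus ran from near the lowest of all members to the highest 10. Of 10 bound genes of the growth hormone axis, 3 were members: Igf1, Ghr and Socs2. Ghr, the growth hormone receptor gene, held pieces with folds of 4.33, 8.36 and 7.35, of which the first was 2968 bases long at the 3′ end of the gene with a score of 2752. Socs2, an inhibitor of that receptor, held 2 pieces with folds of 5.41 and 5.40. The receptor, its secreted target product and its inhibitor were thus members, while 7 genes of the same list had an AAV-GFP peak. The share of members was 30% (6.67 to 65.2) in the growth hormone axis and 27.8% (9.69 to 53.5) in the glucose list. Both intervals hold the 16.8% of all bound genes.

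The pathway column of the lists gave a wider view of which functions the members fall in, and the pathways named here were picked after their shares were seen. Over 194 pathways with at least 20 bound genes, the median share of members was 15.1%, and 85 pathways lay above 16.8%. Biosynthesis of amino acids had the highest share, 17 of 26 bound genes or 65.4% (44.3 to 82.8). Carbon metabolism followed with 25 of 49 or 51.0% (36.3 to 65.6), and glycolysis and gluconeogenesis had 11 of 22. These pathways share genes and so are not separate counts. Carbon metabolism had many genes with a single peak, where membership was frequent in general. Among its 25 single-peak genes 18 were members, against 37.5% of all single-peak genes.

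**Figure D5:**
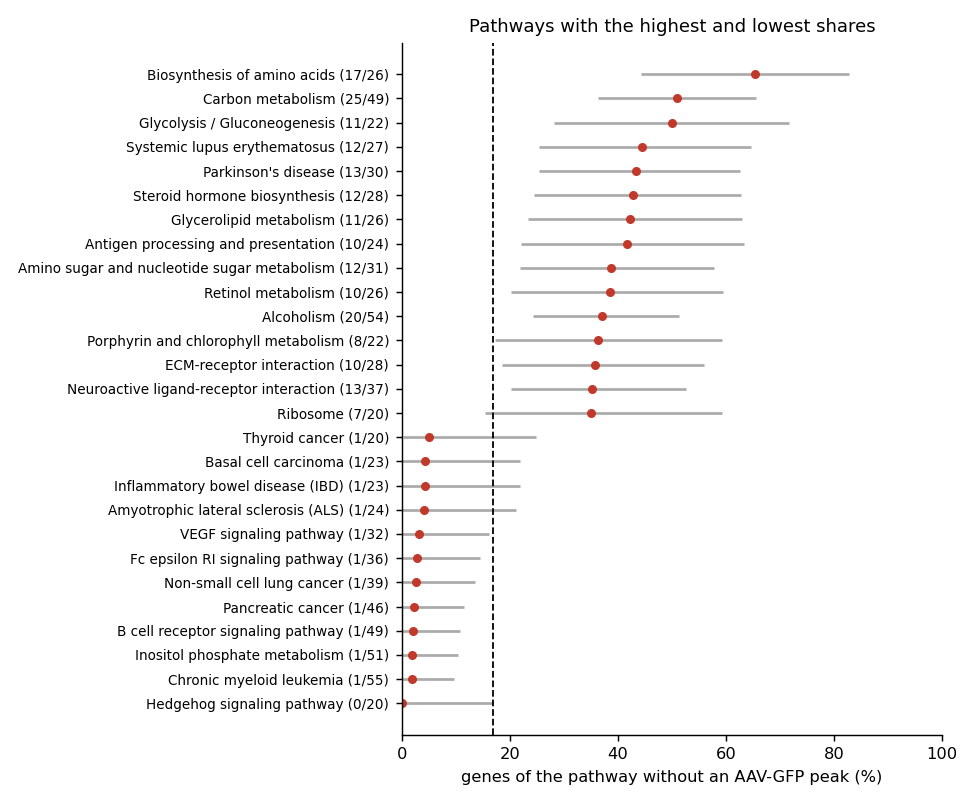
Share of member genes, in percent of the genes with an AAV-NAT10 peak, with exact 95% intervals of counting error. Only the pathways with the highest and the lowest shares are drawn. They come from the 194 pathways of the lists' own annotation with at least 20 such genes. Biosynthesis of amino acids stands at 65.4% and carbon metabolism at 51.0%.

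The carbon metabolism members covered the mitochondrial citrate cycle and cytosolic glycolysis. Cs, citrate synthase, held 5 pieces with folds of 6.53, 4.15, 4.80, 4.87 and 5.30, the last of them 1512 bases long at the 3′ end of the gene with a score of 1011. Pcx, pyruvate carboxylase, which feeds the cycle and gluconeogenesis, held 4 pieces with folds of 5.30, 5.5, 4.48 and 7.36 that covered 434 bases. Citrate cycle members also included Idh2, Fh1, Dld, Dlst, Sucla2, Suclg1 and Suclg2. Glycolytic members were Pfkl, Pfkm, Pgk1, Pklr, Pkm and Hk3, and the pentose phosphate route gave Pgd, Tkt and Prps1. Got1, an aminotransferase of the malate shuttle, held 1 piece of 806 bases with a fold of 3.23, and Cps1, which starts the urea cycle, held 1 piece of 96 bases at a fold of 6.26 and score of 884. None of the Cs and Pcx pieces had a fold above 7.36.

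Of 7 bound plasma protein genes 2 were members, Cp (ceruloplasmin, 2 pieces at 6.36 and 5.08) and C3 (the central complement protein, 3 pieces at 4.04 to 4.60, the highest score 2602). Of 6 bound genes of the P450 and drug metabolism list 2 were members, Por and Nqo1, and of 2 bound respiratory chain genes 1, Cyc1, was a member at a fold of 3.93. Nqo1 and Cyc1 had no peak scored at least 100. Of 4 bound genes of amino acid metabolism and the urea cycle 3 were members, Got1, Cps1 and Cbs, and of 6 bound amino acid transporters 1, Slc7a2.

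Over all genes of the metabolic pathways map, 149 of 586 bound genes were members, 25.4% (21.9 to 29.2), against 408 of 2456 bound genes with another pathway only, 16.6% (15.2 to 18.1). Numbers of peaks per gene moved with this difference. Among single-peak genes the shares were 46.7% (39.4 to 54.2) and 41.0% (37.1 to 45.0), whose intervals overlap. Among genes with 2 to 4 peaks they were 23.6% (18.3 to 29.6) and 15.7% (13.4 to 18.3), and among genes with 5 or more 4.73% (2.07 to 9.11) and 1.46% (0.801 to 2.44). The share in the map was thus higher in each class, with overlapping intervals in all 3, by a narrow margin for 2 to 4 peaks. In the 4 classes of gene length, from short to long, the map had 32.0%, 34.8%, 18.5% and 13.2%, and the other pathway genes 31.5%, 17.0%, 12.0% and 8.14%. In the shortest class the shares were nearly the same, and in the next class the intervals did not overlap (27.9 to 42.2 and 14.0 to 20.3).

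Organelles of breakdown and oxidation also held members. The lysosome pathway had 24 of 81 bound genes, 29.6% (20.0 to 40.8). Among its 25 single-peak genes 15 were members, against 37.5% of all single-peak genes. Its members included acid hydrolases: Hexa (a hexosaminidase subunit) with 6 pieces and a highest fold of 8.66, Lipa (the acid lipase that frees cholesterol from its esters) with 5 pieces and 7.28, and Pla2g15 (a lysosomal phospholipase) with 1 piece of 1885 bases at 8.99. Smpd1, acid sphingomyelinase, held 3 pieces with a highest fold of 6.43, and Psap, the precursor of the saposins, held 3 with 5.56. The peroxisome pathway had 15 of 51 bound genes, 29.4% (17.5 to 43.8). Of its 21 single-peak genes 10 were members, 47.6%, against the same 37.5%. Pex6, an ATPase that recycles the import receptor, held 2 pieces with a highest fold of 11.1, and Pex5, that receptor, held 1 piece of 1355 bases with a fold of 7.11 at the score ceiling. Lipa and Pla2g15 act on lipids of the lysosome, and their highest folds lay above the upper quartile of the member peaks, 5.58. For Lipa this sets the highest of 5 pieces against a value over single peaks.

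Gene families picked by name after the values were seen gave the following counts, to be read beside the 16.8% of all bound genes. Of 13 bound histone genes 9 were members, with the replacement histone H3f3b at a fold of 5.13 and score of 1989 and the linker histone Hist1h1c at a fold of 2.49. Of 29 bound mitochondrial ribosomal protein genes 11 were members, and of 18 bound proteasome subunit genes 8 were. Of 33 bound cytochrome P450 genes 13 were members, of 9 carboxylesterases 7, and of 6 UDP-glucuronosyltransferases 4. With only peaks scored at least 100, no UDP-glucuronosyltransferase and 4 of the mitochondrial ribosomal protein genes remained members. In the same setting 7 histones, 5 proteasome subunits, 11 cytochromes P450 and 6 carboxylesterases remained, and over all bound genes 12.4% were members. These drug metabolism families and the histones hold near-identical copies, so their reads may be split or shared between genes. Cyp2d9 at the score ceiling with 264 bases and a fold of 4.74, Cyp2d10 with 261 bases at 4.43 and Cyp2d12 with 188 bases at 10.2 are such copies. Por, the reductase that serves all microsomal P450 enzymes and has no close copy, held pieces with folds of 4.89 and 5.35.

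Some pathways and gene ontology terms with a low share of members are given next, picked after their shares were seen. No gene of the Hedgehog pathway was a member, 0 of 20, which allows a share of up to 16.8% by the exact interval. Inositol phosphate metabolism had 1 of 51, ErbB signalling 3 of 60 and FoxO signalling 5 of 81. The bound genes of these 4 pathways had a median of 4 to 6 peaks each, a class of genes in which membership was rare in general. Other signalling pathways had higher shares, though with intervals that all hold the 16.8% of all bound genes. Among them were Notch with 9 of 32 or 28.1% (13.7 to 46.7) and calcium with 13 of 60 or 21.7% (12.1 to 34.2). PPAR had 6 of 28 or 21.4% (8.30 to 41.0) and HIF-1 12 of 60 or 20% (10.8 to 32.3). By gene ontology term, protein phosphorylation had 13 of 218 or 5.96%, chromatin modification 9 of 169 or 5.33%, and ubiquitin protein ligase activity 7 of 143 or 4.90%, with medians of 4 to 5 peaks per gene. Nuclear chromatin, a median of 3 peaks per gene, had 24 of 125 or 19.2%. The extracellular region had 91 of 302 or 30.1% and the mitochondrion 214 of 904 or 23.7%. MAP kinase cascade genes had 1 of 29, Map3k14, and ubiquitin-specific proteases 2 of 40.

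Stress, growth and inflammation lists held a few members each. In the unfolded protein response 4 of 14 bound genes were members: Syvn1, Atf4, Canx and Ddit3. Syvn1, the ubiquitin ligase of endoplasmic reticulum degradation, held a piece at its 5′ end with a fold of 9.96 and one of 1384 bases at its 3′ end at a fold of 6.72 and score of 2284. Atf4, which drives transcription in the integrated stress response, held pieces with folds of 3.61 and 4.77, of which the second scored 1033. Ddit3, its pro-apoptotic target CHOP, held 1 piece of 118 bases at its 5′ end at a fold of 3.57 and score of 114. The folds of Syvn1 thus stood above those of the stress factors Atf4 and Ddit3. Of 18 bound ribosome biogenesis genes, a process in which NAT10 acts, 4 were members (Rrp1b, Dkc1, Npm1 and Bop1), with folds of 3.57 to 5.48. Of 8 bound cell cycle genes 3 were members, Ccne2, Pcna and Birc5, and none of them scored 100. Of 11 bound acute phase and inflammation genes 2 were members, Nlrp3 (fold 6.12, score 117) and Il1b (4.13, score 53.5). Of 19 bound Wnt, Hedgehog and Notch genes 2 were members, the Notch target Hes1 at a fold of 9.61 and the Wnt enhancer Rspo3 at 5.96. Clock genes had 1 member of 15, Cry1, whose highest score was 78.8, so with only peaks scored at least 100 no clock gene was a member. Over all 25 lists, 65 of 263 bound genes were members, to be read beside the 16.8% of all bound genes, and 22 lists held at least 1. The lists were chosen with earlier results of these data known, so this count describes the choice too.

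Markers of cell types other than hepatocytes were read in the same way. In bulk liver, fewer cells of a type and less RNA per cell cannot be told apart, and both can decide whether a gene reaches a peak. Of 13 bound stellate cell markers 5 were members: Col5a1, Pdgfrb, Col4a2, Col1a1 and Col1a2. Col5a1 held 6 pieces with folds of 2.94 to 5.16, Pdgfrb held 1 of 1537 bases at 4.69, and Col1a1 and Col1a2 held 1 each at 4.21 and 3.49. The highest fold of the 5 genes was 5.16, and the median of their highest folds was 4.69, close to the median of all member peaks. The first median takes the highest peak of each gene, whereas the second counts every peak. With only peaks scored at least 100, 4 of the 5 remained. No endothelial marker (0 of 14 bound), Kupffer cell marker (0 of 5) or cholangiocyte marker (0 of 4) was a member. These 3 lists had medians of 5, 8 and 6 peaks per bound gene, against 2 in the stellate list, and membership was rare in genes with many peaks. Their exact upper limits were 23.2%, 52.2% and 60.2%, and the stellate interval was 13.9 to 68.4%. All of these intervals hold the 16.8% of all bound genes, so the lists cannot be told apart from it. Of 2 bound lymphoid and red cell markers Alas2, the erythroid enzyme of heme synthesis, was a member with 4 pieces at 3.46 to 4.59. Of the 15 hepatocyte markers 6 were bound and 2, Apob and Cps1, were members. Most of these hepatocyte markers thus had no AAV-NAT10 peak at all, and a peak does not rank genes by their level in the tissue. The part of cell composition in these counts was not tested.

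The border of the rule was examined on both sides. Just inside it, 11 member peaks shared at least 1 base with an AAV-GFP peak that carried another gene's name. The Med12l peak shared 1437 of its 1984 bases with a control peak of Igsf10, and the Ccne2 peak lay wholly, 609 bases, under a control peak of Ints8. Peaks have no strand in the lists, and reads of overlapping genes therefore cannot be separated. A further 8 member names were bound in the control under a synonym, such as Jhdm1d for Kdm7a and Lphn1 for Adgrl1. Just outside it, Coro1c was kept out by a single control peak of score 50.01 and fold 2.73, while it held 3 AAV-NAT10 peaks. Zc3h8 and Polh were likewise kept out by single control peaks scored 50.1 and 50.2. In all, 458 of the 2082 named shared genes with a single control peak had that peak scored under 100. Absence from the control list can therefore mean a control signal just under the lowest listed score, not lack of a signal.

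Nat10 itself held peaks in both lists and was no member. It had 10 peaks with a median fold of 14.9 in AAV-NAT10 and 9 peaks with a median of 4.88 in AAV-GFP. Depth and IP yield of the libraries are unknown here, so these values of separate lists are no measure of change.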

How the data were processed

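RIP-seq peak lists of 2 viruses were used, each of 1 IP library over 1 input library. The authors deposited for each peak a fold enrichment, which is a linear ratio over background, a score that is a multiple of minus log10 of the p-value, and an FDR in percent, per the file headers. MACS named the peaks, per the file headers, but its version, the aligner and the read filters were not found in the labels or headers. Positions are on mm10, the build in the submitters' processing notes. Read depth is unknown, so no interval covers it.

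Rows were reduced to unique positions, starts were counted from 1, and gene names were compared as spelled. Strand, length and ends came from RefSeq (GRCm38.p6, the assembly of mm10), which held 1318 of 1427 member names; the first 50 bases came from its promoter table. Shares have exact Clopper-Pearson 95% intervals for counting error only. Python 3.11.15, pandas 2.3.3, numpy 2.4.6, scipy 1.17.1 and matplotlib 3.10.9 were used. The member rule was checked with gene names planted in the real list. The flags for gene ends and the overlap count were checked on simulated positions. No test between viruses was possible with 1 library per group.

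The members, the 25 gene lists (493 genes) and the named genes were chosen with earlier results of these data known. Named were the 10 member genes highest by fold, by number of peaks and by length at the score ceiling, and up to 4 members per list. Some member genes are not reported here. Further members of a list, the pathways, families and genes of other pathways were named after their values were seen. Planned values on coding sequence, UTR, GC content and motifs inside peaks needed a genome and were not analysed here; position at gene ends and first bases replaced them. Alternatives were a score of at least 100, equal list sizes, overlap rules and synonyms.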

Additional observations from a re-analysis of the deposited data

How the results depend on the processing

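The number of members depended most on low scores. With AAV-NAT10 peaks scored at least 100, 1288 member peaks in 961 genes (12.4% of 7768) were left, and with as many top-scored AAV-NAT10 peaks as the control list holds, 1257 in 945 genes (12.2% of 7726). The share of member genes with a single peak then rose to 77.1% and 78.0%. Dropping peaks that touch or lie mostly under a control peak left 2169 and 2175 peaks, joining synonyms left 2171, and counting by peak name left 2180. Of the 65 list genes that were members, 51 and 50 were so under the first 2 settings. The share of member peaks at a 3′ end was 29.7% with scores of at least 100, 35.4% in single-peak genes and 20.8% with a tolerance of 10 bases. The CNN repeat was found in 39.2% of first windows on the opposite strand. Members were 46.7% of the metabolic map genes with a single peak, and 19.8% with equal list sizes, where genes of other pathways had 12.1%. The causes were not tested. Values inside peaks that need a genome (motif, GC content, coding and UTR shares) were not run. No paired analysis was possible because each group has 1 library. The equal-size, synonym and overlap settings were planned; those on gene ends, first bases and the metabolic map were chosen after seeing the data. Read depth is unknown, so it limits the reading of every missing control peak.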

Other observations

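Receptors and the splicing machinery held members not described above. In the neuroactive ligand-receptor pathway 13 of 37 bound genes were members, 35.1% (20.2 to 52.5). Of its 20 single-peak genes 11 were members, against 37.5% of all single-peak genes. Avpr1a, the vasopressin receptor of hepatocytes, held 2 pieces covering 2665 bases with folds of 3.83 and 5.32, and S1pr1, a sphingosine 1-phosphate receptor, held 1 piece of 2682 bases with a fold of 4.32. In the spliceosome pathway 20 of 88 bound genes were members, 22.7% (14.5 to 32.9), an interval that holds the 16.8% of all bound genes. U2af1, which reads the 3′ splice site, held 1 piece of 274 bases at a fold of 7.24 and score of 1015, and Hnrnpa1, which has many processed copies in the genome, held 2 pieces with folds of 3.98 and 5.93. In the Notch pathway 9 of 32 bound genes were members, with an interval (13.7 to 46.7%) that also holds 16.8%. Among them was the ligand gene Dll1 with 2 pieces at folds of 4.13 and 6.04. These pathways were picked after their shares were seen.

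Zpr1 and Zfp259 are both names of members and are one gene under its present and its former symbol, so the count of 1427 genes holds at least this repeat. Zinc finger (Zfp) genes, which are numerous, had 26 members among 249 bound genes, 10.4%.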
